A study of Mus musculus with 4 samples.

Results

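Chemokine ligands made by monocytes were followed as 10 genes chosen by symbol: Ccl2, Ccl3, Ccl4, Ccl5, Ccl6, Ccl9, Cxcl2, Cxcl10, Cxcl16 and Ccrl2. All 10 were found among the 31017 gene symbols of each count table. Of these genes, 9 encode secreted or membrane-anchored chemokines, and Ccrl2 encodes an atypical receptor, so the name holds for 9 of the 10. The study sequenced messenger RNA of monocytes isolated from the bone marrow by flow cytometry, with 2 libraries from mice of 18 months (aged) and 2 from mice of 3 months (young). All mice were wild-type C57BL/6, and every library carries the disease label atherosclerosis, with no treatment or engineered allele named for either age. The surface markers of the sort, the number of animals behind a library and whether animals were pooled were not stated in the labels. The p-values therefore describe only the variation among these 4 libraries, part or all of which may be technical.

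Chemokines are small proteins that attract leukocytes through G protein-coupled receptors, and they are sorted into CC and CXC families by the spacing of their first cysteines. Inducible chemokines such as Ccl3, Cxcl2 and Ccl2 are switched on by NF-kB and stress signals, Cxcl10 above all by interferon, and their short-lived messages are held down by decay factors such as the product of Zfp36. Ccl6 and Ccl9 are rodent CC chemokines that myeloid cells of the marrow make without stimulation, and both act on the receptor Ccr1.

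Library totals ran from 20159129 to 34278754 counts, and 12035 genes entered the test of aged against young, all 10 members among them. All 10 listed monocyte genes were detected. All 14 listed neutrophil markers were detected too, so detection alone does not check the labelled cell type. Lyz2, the lysozyme gene of myeloid cells, stood at 34835 and 34698 CPM in aged libraries, against 32747 and 35199 CPM in young libraries (CPM, the usual depth-scaled count unit, here with TMM-scaled library sizes). Granulocyte transcripts were abundant as well: all 14 neutrophil markers were tested, and Retnlg and Ngp were singled out after their values were seen. Retnlg stood at 3617 to 3884 CPM over the 4 libraries. Ngp, a granule gene, rose with age, at 5066 and 4851 CPM against 3145 and 3076 CPM (log2 change 0.67 ± 0.049, edgeR adjusted p = 2.11e-05). It was not typical of the list: of the 14 neutrophil markers 2 rose and 5 fell with edgeR, at a median log2 change of -0.16. Their summed level was 35510 and 36082 CPM in aged libraries, against 36789 and 35652 CPM in young libraries. In bulk libraries, fewer cells of a type and less RNA per cell cannot be told apart.

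Inducible chemokine messages were mostly higher in the aged libraries. Of 10 members 6 were higher there, 1 was lower and 3 did not pass (edgeR quasi-likelihood test, Benjamini-Hochberg adjusted p under 0.05 over all genes). The inducible ligands Ccl3, Cxcl2, Cxcl16, Ccl2 and Ccl5 and the receptor gene Ccrl2 rose by 1.94- to 2.5-fold, and the homeostatic ligand Ccl9 fell. Over all tested genes, 2.87% were called higher and 2.89% lower, 5.77% in all. The members' median log2 change was 0.97, against -0.0044 for all tested genes. The members were chosen with earlier results of these data known, so setting them beside all genes is a description and not a test. Aged and young libraries were fully separated for each of the 10 members, with 7 higher and 3 lower in both aged libraries, which was so for 51.6% of all tested genes (25.9% higher, 25.7% lower). The count of higher members was 3 without young replicate 1 and 3 without young replicate 2, namely Ccl3, Cxcl2 and Ccrl2 each time, and without young replicate 1 no member was lower. Without young replicate 1, the deepest library, the counts over all genes were 116 higher and 81 lower.

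**Figure D1:**
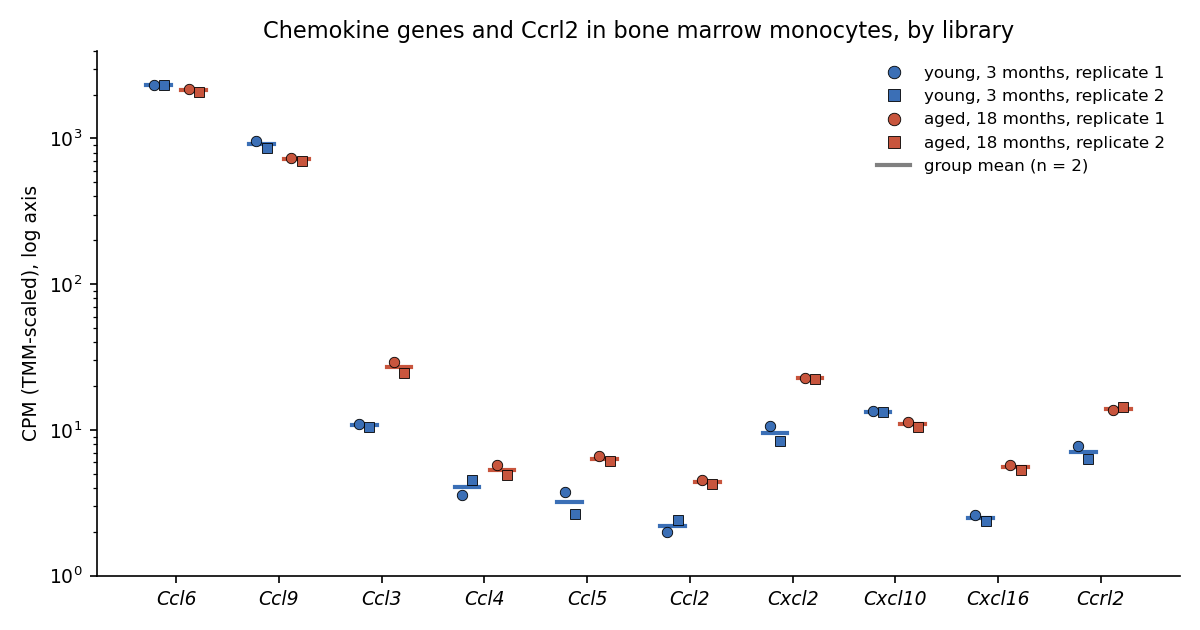
Each point is the level of a gene in 1 library, in CPM on a log axis, with young libraries in blue, aged libraries in red and a bar at the mean of each group (n = 2). Ccl6 and Ccl9 lie at 706 CPM or more in all libraries and the other 8 genes at 29.4 CPM or less.

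**Figure D2:**
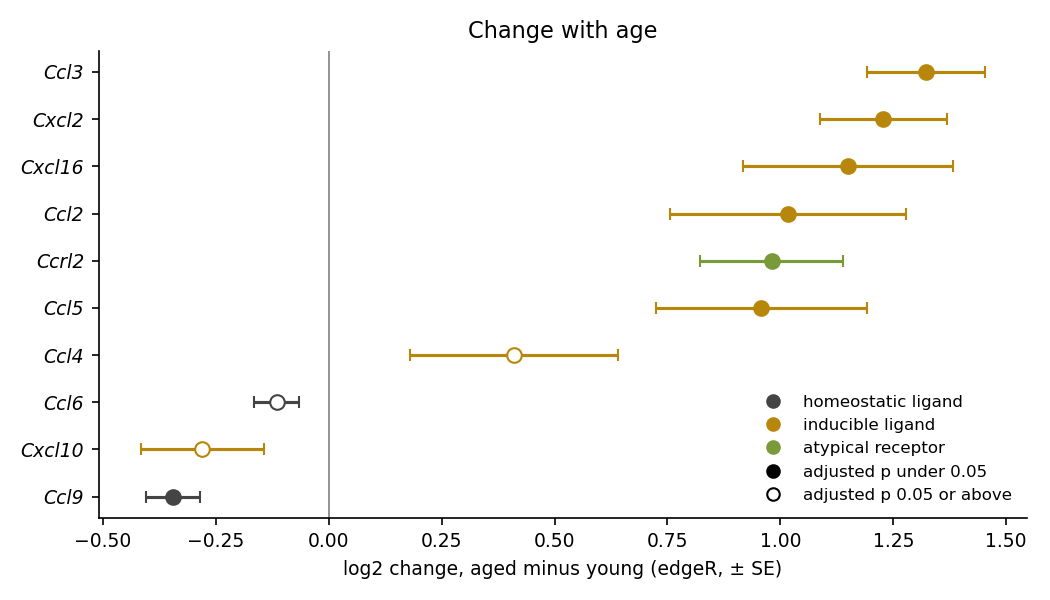
Log2 change from young to aged for each of the 10 genes, with the standard error from edgeR, ordered by size; filled points passed the test. Ccl3 is highest at 1.32 and Ccl9 lowest at -0.34, and the open points are Ccl4, Ccl6 and Cxcl10.

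NF-kB and interferon-activated factors bind in the stretch before the start of a gene, so promoter letters are shown for the inducible ligands Cxcl2, Cxcl10 and Ccl3 and for the homeostatic pair, that is, for each ligand with a matched window. RefSeq windows on GRCm38.p6 were matched for 6 of 10 members (Ccl3, Ccl6, Ccl9, Cxcl2, Cxcl10 and Ccrl2). The 250 bases before the start were searched on both strands for the NF-kB consensus, AP-1 (TGANTCA), the interferon-stimulated response element, C/EBP (TTGCNNAA) and the TATA box (TATAAA). These were present in 3.9%, 6.75%, 2.98%, 9.57% and 12.4% of 32841 windows of the same length. The windows are chr5:90903649-90903898 (plus strand), chr5:92348890-92349139, chr11:83649379-83649628, chr11:83578637-83578886 and chr11:83593088-83593337 (all minus strand). Each runs 5′ to 3′ up to the base before the RefSeq start, which can differ from the GENCODE start given with each gene, with matches in capitals.
Cxcl2: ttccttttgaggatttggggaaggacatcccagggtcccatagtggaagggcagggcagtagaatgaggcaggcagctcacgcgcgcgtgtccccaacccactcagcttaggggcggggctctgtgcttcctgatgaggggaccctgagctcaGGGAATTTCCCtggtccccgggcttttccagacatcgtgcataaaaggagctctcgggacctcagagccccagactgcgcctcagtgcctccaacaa
Cxcl10: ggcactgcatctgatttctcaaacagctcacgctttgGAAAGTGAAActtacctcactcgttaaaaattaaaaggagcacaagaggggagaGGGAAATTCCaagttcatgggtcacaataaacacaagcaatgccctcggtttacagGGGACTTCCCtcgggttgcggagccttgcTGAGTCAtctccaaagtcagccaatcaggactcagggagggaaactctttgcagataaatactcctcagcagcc
Ccl3: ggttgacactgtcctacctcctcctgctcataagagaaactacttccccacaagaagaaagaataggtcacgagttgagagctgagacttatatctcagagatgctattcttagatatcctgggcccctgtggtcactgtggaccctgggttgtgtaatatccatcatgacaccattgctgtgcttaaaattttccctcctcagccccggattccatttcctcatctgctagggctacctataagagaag
Ccl9: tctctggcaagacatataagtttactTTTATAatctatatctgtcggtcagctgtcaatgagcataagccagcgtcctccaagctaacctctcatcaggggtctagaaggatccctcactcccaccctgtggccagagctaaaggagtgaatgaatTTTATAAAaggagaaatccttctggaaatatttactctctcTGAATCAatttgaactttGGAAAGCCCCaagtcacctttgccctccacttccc
Ccl6: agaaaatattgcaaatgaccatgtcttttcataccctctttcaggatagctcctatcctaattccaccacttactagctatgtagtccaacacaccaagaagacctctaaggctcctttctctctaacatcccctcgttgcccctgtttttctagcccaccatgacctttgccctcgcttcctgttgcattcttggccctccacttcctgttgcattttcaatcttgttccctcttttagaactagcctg

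In the Cxcl2 window the capitals are an NF-kB match 97 bases before the start, which overlaps a match on the other strand shifted by 1 base. The Cxcl10 window held an interferon-stimulated response element at 213, NF-kB matches at 159 and 103 and an AP-1 match at 74 bases before the start. In the Ccl9 window, the TATA box letters stood at 224 and, overlapping on both strands, at 94 and 92 bases before the start, an AP-1 match at 53 and an NF-kB match at 35. The first of 3 Ccrl2 windows, not printed, held an NF-kB match 56 bases before the start. No match to the 5 motifs was found in the Ccl3 or Ccl6 windows. NF-kB matches were thus found in windows of genes that rose (Cxcl2, Ccrl2), fell (Ccl9) and did not pass (Cxcl10), which describes these letters only.

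Ccl6 and Ccl9, the homeostatic pair, made up nearly all of the chemokine message. Ccl6 (ENSMUSG00000018927.3; chromosome 11, 83587882 to 83593087 on GRCm38) gave 55161 and 45279 counts in aged libraries, against 80174 and 46240 counts in young libraries, which is 2200 and 2083 CPM against 2321 and 2320 CPM. Both aged libraries were lower, but the log2 change of -0.12 ± 0.050 (standard error, n = 2 per group) did not pass (adjusted p = 0.222). Ccl9 (ENSMUSG00000019122.8; chromosome 11, 83572919 to 83578636) stood at 729 and 706 CPM in aged libraries, against 958 and 865 CPM in young libraries. It fell by 0.34 ± 0.060 on the log2 scale (adjusted p = 0.00925), from 911 ± 65.9 to 718 ± 16.6 CPM (SD, n = 2). The call on Ccl9 was lost without young replicate 1, the library in which it was highest (-0.27, adjusted p = 0.0925). Within a library the ratio of Ccl6 to Ccl9 counts, which no scaling moves, was 3.02 and 2.95 in aged libraries, against 2.42 and 2.68 in young libraries. So Ccl9 gave a smaller part of the homeostatic counts in both aged libraries.

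Ccl3 (ENSMUSG00000000982.5; chromosome 11, 83647844 to 83649355), also known as MIP-1 alpha, a ligand of Ccr1, showed the largest rise of the members. Its counts were 736 and 534 in aged libraries, against 382 and 209 in young libraries, or 29.4 and 24.6 CPM against 11.1 and 10.5 CPM. Every aged library was more than 2-fold above every young one. The log2 change was 1.32 ± 0.13 (2.5-fold, adjusted p = 0.00025), and it passed with each library left out. Ccl4 (ENSMUSG00000018930.3; chromosome 11, 83662584 to 83664683), or MIP-1 beta, an attractant of T cells and monocytes whose gene lies next to Ccl3, stood at 5.78 and 4.88 CPM in aged libraries, against 3.56 and 4.57 CPM in young libraries. The aged values were higher without overlap but close to the young ones, and the log2 change of 0.41 ± 0.23 did not pass (adjusted p = 0.341). The ratio of Ccl3 to Ccl4 counts within a library was 5.08 and 5.04 in aged libraries, against 3.11 and 2.30 in young libraries.

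Ccl5 (ENSMUSG00000035042.2; chromosome 11, 83525778 to 83530518), known as RANTES, a ligand of Ccr1 and Ccr3 that T and NK cells make in large amounts, gave 165 and 133 counts in aged libraries, against 130 and 53 counts in young libraries. This is 6.58 and 6.12 CPM against 3.76 and 2.66 CPM, with both young libraries below the aged ones and apart from each other. Ccl5 rose by 0.96 ± 0.23 on the log2 scale (1.94-fold, adjusted p = 0.0415). The call was lost without aged replicate 2 (0.0548), young replicate 1 (0.0685) or young replicate 2 (0.166). Of the 14 T and NK cell markers, 12 were tested and none passed with edgeR, DESeq2 or limma-voom, with 1 lower at an unadjusted p under 0.05. Their median log2 change was 0.24, and 8 of the 12 had a positive value. Nkg7, the most abundant, stood at 32.8 and 29.1 CPM in the aged against 36.8 and 41.5 CPM in the young group. The summed level of the list was 60.1 and 59.7 CPM in aged libraries, against 64.3 and 70.9 CPM in young libraries, so the sum and the median differ in sign. The part of these cells in the Ccl5 result was not tested.

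Ccl2 (ENSMUSG00000035385.5; chromosome 11, 82035571 to 82037453), or MCP-1, the ligand that draws monocytes through Ccr2, was among the lowest members. It had 114 and 93 counts in aged libraries, against 69 and 48 counts in young libraries, or 4.55 and 4.28 CPM against 2.0 and 2.41 CPM. Its log2 change of 1.02 ± 0.26 (2.02-fold) passed narrowly (adjusted p = 0.0497). It did not pass with any library left out (0.079 to 0.301), with DESeq2 (0.0823) or with library totals alone (0.0515), so the size held and the call did not.

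Cxcl2 (ENSMUSG00000058427.10; chromosome 5, 90903871 to 90905938), or MIP-2, a neutrophil attractant that acts on Cxcr2, rose second most. It gave 570 and 486 counts in aged libraries, against 367 and 168 counts in young libraries, which is 22.7 and 22.4 CPM against 10.6 and 8.43 CPM. The aged libraries lay close together and well above both young ones. The log2 change was 1.23 ± 0.14 (2.34-fold, adjusted p = 0.000731), and it passed with each library left out. Cxcl16 (ENSMUSG00000018920.11; chromosome 11, 70453983 to 70459984), a chemokine anchored in the membrane that binds Cxcr6 and also takes up oxidised lipoprotein, stood at 5.74 and 5.34 CPM in aged libraries, against 2.6 and 2.36 CPM in young libraries. It rose by 1.15 ± 0.23 on the log2 scale (2.22-fold, adjusted p = 0.0183), on 47 to 144 counts a library. Without young replicate 1 or young replicate 2 its adjusted p was 0.0936 and 0.0671. The exons of Cxcl16 share 552 bases with Zmynd15 on the opposite strand, and Zmynd15 had 0 to 9 counts a library.

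Cxcl10 (ENSMUSG00000034855.13; chromosome 5, 92346638 to 92348889), or IP-10, the interferon-induced ligand of Cxcr3, was the 1 inducible ligand with lower values in both aged libraries. Its counts were 285 and 229 in aged libraries, against 463 and 263 in young libraries, or 11.4 and 10.5 CPM against 13.4 and 13.2 CPM. Both aged libraries were lower by a small margin, and the log2 change of -0.28 ± 0.14 did not pass (adjusted p = 0.272). Under the 12 alternatives its log2 change stayed between -0.34 and -0.23 and none passed. Its exons share 133 bases with Art3 on the opposite strand, which had 0 to 7 counts a library.

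Ccrl2 (ENSMUSG00000043953.12; chromosome 9, 111054486 to 111057519), an atypical receptor that holds the attractant chemerin at the cell surface for cells with Cmklr1, is no ligand but rose with the ligands. It stood at 13.8 and 14.3 CPM in aged libraries, against 7.76 and 6.32 CPM in young libraries. Its log2 change was 0.98 ± 0.16 (1.97-fold, adjusted p = 0.00593), and it passed with each library left out (adjusted p up to 0.0232). Cmklr1 itself was low, at 1.77 ± 0.154 CPM in aged against 1.18 ± 0.385 CPM in young libraries (SD, n = 2), and its log2 change of 0.55 ± 0.40 did not pass (adjusted p = 0.47).

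**Figure D3:**
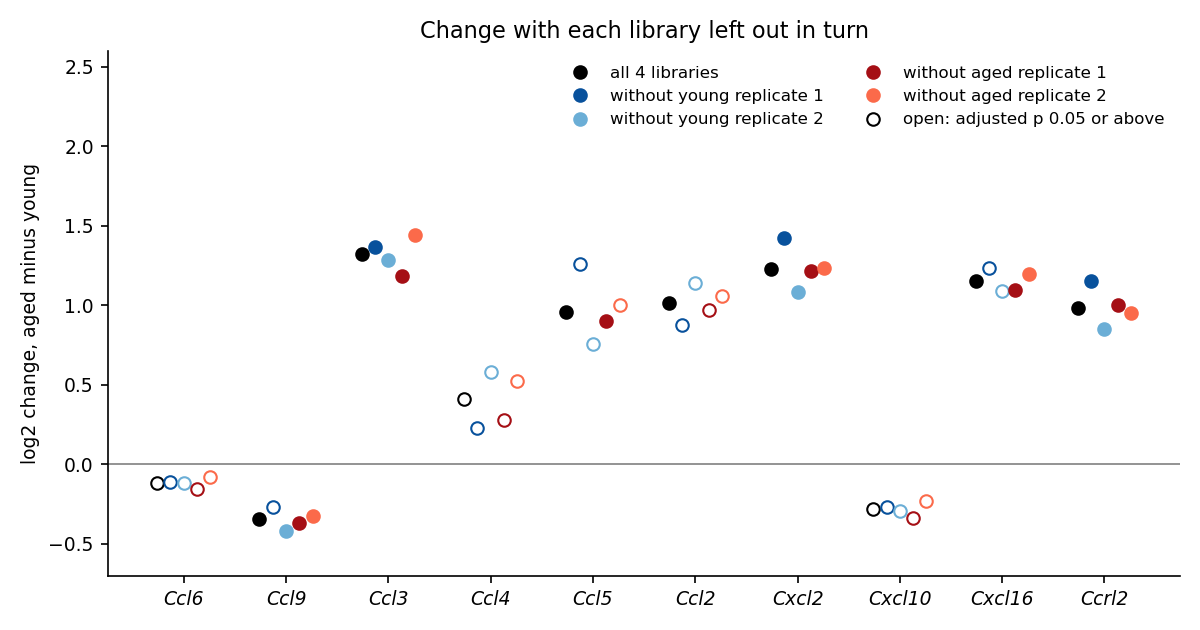
Log2 change from young to aged for each gene with all 4 libraries (black) and with each library left out in turn, filled where the adjusted p was under 0.05. Ccl3, Cxcl2 and Ccrl2 are filled in all 5 fits, and Ccl2 only with all 4 libraries.

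Set against the homeostatic ligands in the same library, the inducible ones took a larger place in the aged libraries. Ccl6 and Ccl9 together gave 73453 and 60621 counts in aged libraries, against 113264 and 63474 counts in young libraries, while the 7 inducible ligands gave 2159 and 1697 counts against 1624 and 879 counts. Per 1000 counts of Ccl6 and Ccl9, the inducible ligands had 29.4 and 28.0 counts in aged libraries, against 14.3 and 13.8 counts in young libraries. Ccl3 alone accounted for 10.02 and 8.81 of these in aged libraries, against 3.37 and 3.29 in young libraries, and Cxcl2 for 7.76 and 8.02 against 3.24 and 2.65. Cxcl10 did not share in this, with 3.88 and 3.78 in aged libraries, against 4.09 and 4.14 in young libraries. The mean log2 CPM of the inducible ligands minus that of the homeostatic pair was -7.03 and -7.10 in aged libraries, against -8.12 and -8.11 in young libraries. The ages thus differed by 1.05 on the log2 scale, with a spread within groups of 0.035 (pooled SD). It is given without a test, since an exact two-sided test of 2 libraries against 2 cannot pass 0.05 (its smallest p is 0.33) and the members were chosen with results known.

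**Figure D4:**
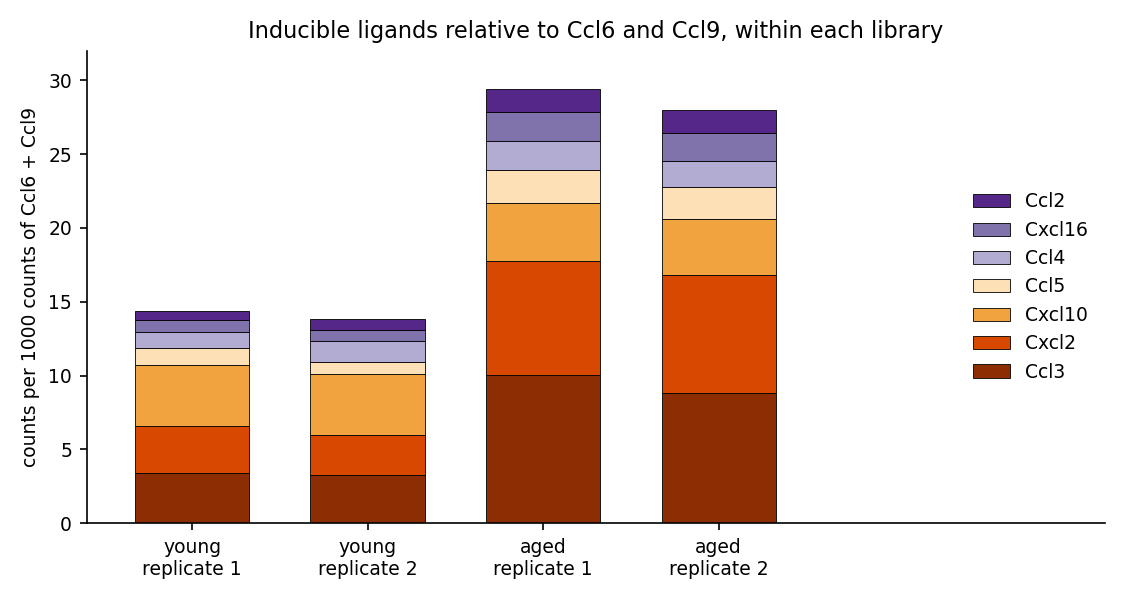
Stacked bars give the counts of the 7 inducible ligands per 1000 counts of Ccl6 and Ccl9 in each library, on an axis from 0. The 2 aged libraries reach 29.4 and 28.0 and the 2 young ones 14.3 and 13.8, with the largest part of the gap in the Ccl3 and Cxcl2 segments.

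Levels were compared between genes per kilobase of exon. In the aged libraries the order was Ccl6 (1193 CPM per kb), Ccl9 (236), Ccl3 (35.2), Cxcl2 (10.9), Ccl4 (8.08), Ccl5 (6.61), Ccrl2 (5.40), Cxcl10 (4.86), Ccl2 (3.88) and Cxcl16 (1.83). No neighbours in this order overlapped between their 2 libraries. In the young libraries the order was Ccl6 (1293 CPM per kb), Ccl9 (299), Ccl3 (14.1), Ccl4 (6.16), Cxcl10 (5.90), Cxcl2 (4.61), Ccl5 (3.34), Ccrl2 (2.71), Ccl2 (1.94) and Cxcl16 (0.821). There the values of Ccl4 and Cxcl10 overlapped, as did those of Ccl5 and Ccrl2. Cxcl10 thus held place 5 in the young and place 8 in the aged libraries, and Cxcl2 held places 6 and 4.

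Of the CC genes, 5 share a stretch of 139 kb on chromosome 11, in the order Ccl5, Ccl9, Ccl6, Ccl3 and Ccl4. Ccl9 and Ccl6 are 9.24 kb apart and both sit on the minus strand, Ccl3 follows after 54.8 kb on the same strand, and Ccl4 after another 13.2 kb on the plus strand. Neighbours in this stretch did not share 1 direction: Ccl5 and Ccl3 rose, Ccl9 between them fell, and Ccl6 and Ccl4 did not pass. Ccl2 lies 1488324 bases away from Ccl5 on the same chromosome.

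The other chemokine ligands gave little message in these libraries. Of 29 listed, 28 were in the tables, 9 had 0 counts in all 4 libraries, among them Cxcl1 and Ccl20, and 7 had enough counts to be tested. None of the 7 passed with edgeR, DESeq2 or limma-voom (3 were higher at an unadjusted p under 0.05), and their median log2 change was 0.79. The smallest p belonged to Cxcl12, the marrow retention ligand, at 1.51 ± 0.119 CPM in aged against 0.612 ± 0.128 CPM in young libraries (SD, n = 2; log2 change 1.33 ± 0.45, unadjusted p = 0.0138, edgeR adjusted p = 0.118). The 3 most abundant per kilobase were Ccl24 (1.61 CPM per kb in aged, 0.939 in young), the platelet chemokine gene Pf4 (1.38 and 0.479) and Ccl25 (0.625 and 0.817). The weakest member, Cxcl16, was at 1.83 and 0.821 CPM per kb.

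Receptors for the members were present, and the 3 chemokine receptor genes that passed with edgeR were lower in the aged libraries. Of 23 receptor genes, all in the tables, 14 were tested, 0 rose and 3 fell with edgeR, at a median log2 change of 0.20. None was higher with DESeq2 or limma-voom either, and 1 was higher at an unadjusted p under 0.05. Cxcr2 is also 1 of the neutrophil markers and Ccr3 1 of the eosinophil markers described further on. Cxcr2, the receptor for Cxcl2, fell from 581 ± 38.4 to 436 ± 12.7 CPM (SD, n = 2), a log2 change of -0.42 ± 0.061 (edgeR adjusted p = 0.00348), and passed with each library left out. Cxcr4, the receptor for Cxcl12, fell by 0.58 ± 0.13 on the log2 scale (adjusted p = 0.0245), but not without young replicate 1 (0.0928) or with DESeq2 (0.175). Ccr3, a receptor of eosinophils that binds Ccl5, fell by 1.20 ± 0.26 (adjusted p = 0.0251), but passed with no library left out other than aged replicate 1 (0.0516 to 0.132 for the others). Ccr1, the receptor for Ccl6, Ccl9, Ccl3 and Ccl5, stood at 355 ± 5.04 CPM in aged against 384 ± 0.696 CPM in young libraries (-0.12 ± 0.053, adjusted p = 0.245). Ccr2, the receptor for Ccl2 and the most abundant of the list, stood at 2223 ± 204 against 1975 ± 44.7 CPM (0.17 ± 0.064, adjusted p = 0.155). Ccr2 passed as higher under 3 of the 12 alternatives, 1 of them without aged replicate 2. Cxcr3 (0.22 ± 0.21, adjusted p = 0.587) and Cxcr6 (0.51 ± 0.58, 0.666) did not pass, and Cxcr6 had 14 to 45 counts a library and a log2 change of -0.62 without aged replicate 2. None of 23 tested genes of signalling below the receptors passed with edgeR, at a median of 0.063 (6 higher and 3 lower at an unadjusted p under 0.05; 1 with DESeq2, 0 with limma-voom). The smallest p there was that of Rgs1, a brake on G protein signalling (1.30 ± 0.36, unadjusted p = 0.00449, edgeR adjusted p = 0.0627), which passed without aged replicate 2 (0.0138) and with DESeq2 (0.0438). Without aged replicate 1 its log2 change was 0.81 (adjusted p = 0.258), and without young replicate 2 its adjusted p was 0.188.

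**Figure D5:**
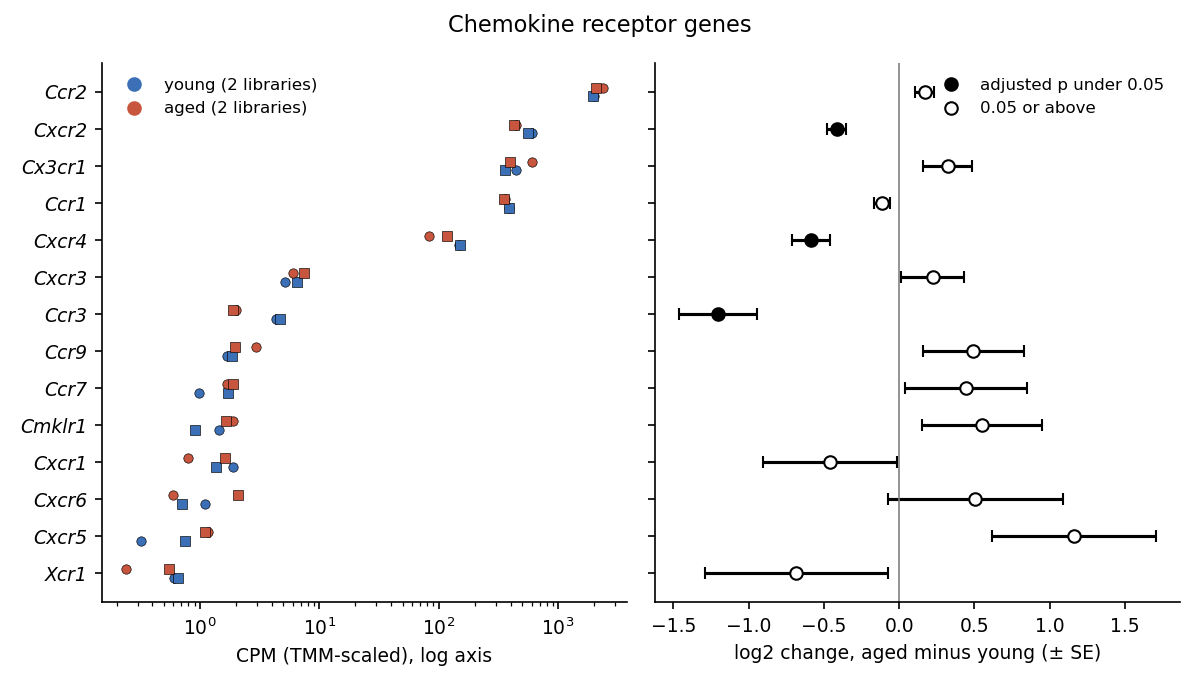
Left, CPM of the 14 tested chemokine receptor genes in each library on a log axis (circles replicate 1, squares replicate 2); right, their log2 change from young to aged with standard error. The 3 filled points, Cxcr2, Cxcr4 and Ccr3, lie left of 0.

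Genes that act upstream of inducible chemokines changed in part and mostly upwards. Of 26 tested NF-kB and cytokine signalling genes 6 rose and 0 fell with edgeR, at a median log2 change of 0.18, while 2 were lower at an unadjusted p under 0.05, 1 with DESeq2 and 2 with limma-voom. The genes that rose included the NF-kB subunit gene Nfkb2 (0.52 ± 0.071, edgeR adjusted p = 0.00223), the inhibitor genes Nfkbie (0.42 ± 0.083, 0.017) and Tnfaip3 (0.45 ± 0.099, 0.0283), the transcription factor gene Cebpb (0.32 ± 0.070, 0.0267) and the adaptor gene Myd88 (0.26 ± 0.058, 0.0273). Nfkb2 passed with each library left out. The others were lost without young replicate 1 (0.0964 to 0.192), Nfkbie, Tnfaip3 and Myd88 also without young replicate 2 (0.0916 to 0.114), and Cebpb and Myd88 without aged replicate 2 (0.0904 and 0.057). Of 15 interferon signalling genes, Ifngr1, a chain of the interferon gamma receptor, rose (0.33 ± 0.056, adjusted p = 0.00805; 0.0827 without young replicate 1), 14 did not pass with edgeR and the median was 0.088. At an unadjusted p under 0.05, 6 were higher and 3 lower. DESeq2 called 1 higher and 0 lower, and limma-voom 2 higher and 1 lower.

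Among 10 genes of message decay, 1 rose and 2 fell, with a median log2 change of 0.064. Zfp36, whose product binds AU-rich chemokine messages and speeds their decay, rose from 415 ± 1.42 to 1030 ± 45.6 CPM (SD, n = 2; log2 change 1.31 ± 0.055, adjusted p = 3.97e-07), so the message of a brake on inducible chemokines rose beside them. Cnot1, the scaffold of the deadenylase complex, fell by 0.35 ± 0.062, and Rc3h1 by 0.50 ± 0.12. Cnot1 was lost without either young library (0.0555 and 0.0587) and Rc3h1 when aged replicate 2 or either young library was left out (0.0725 to 0.254) and with upper-quartile factors (0.0552) or library totals alone (0.0588). Of 10 tested protease genes that process chemokines, Mmp14 rose (1.92 ± 0.32, adjusted p = 0.00696) and the primary granule genes Elane (-0.33 ± 0.051, 0.00473), Prtn3 (-0.36 ± 0.064, 0.0101) and Ctsg (-0.42 ± 0.084, 0.0182) fell, at a median of -0.037. Elane and Prtn3 are neutrophil markers as well, and Zfp36 is also among the immediate early and handling genes described further on. Without young replicate 1, Mmp14 (0.05002), Prtn3 (0.116) and Ctsg (0.198) were lost. Adam10 and Adam17, which shed Cxcl16, were outside the naming rule and at -0.089 ± 0.066 and 0.040 ± 0.070 (edgeR adjusted p = 0.488 and 0.79).

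Markers of other cells and of handling moved with age too, and their part in the members' changes was not tested. Of 30 immediate early and handling genes 16 rose and 1 fell. Their summed level was 6381 and 6748 CPM in aged libraries, against 4256 and 4322 CPM in young libraries. The most abundant were Hspa8 (log2 change 0.44 ± 0.052) and Zfp36 (1.31 ± 0.055). The median log2 change of the list was 0.64, against 0.97 for the members, and 27 of the 30 values were positive. The 16 rises ran from 0.40 (Ier2) to 2.53 (Hspa1a), and Fos, with the smallest p, stood at 1.997 ± 0.063. Ier2, Hspa1a and Fos were named after their values were seen. Of 12 non-classical monocyte genes 9 rose (summed 2420 and 2351 against 1809 and 1753 CPM). Their median log2 change was 1.09, against 0.97 for the members. The most abundant, Itgal (0.089 ± 0.053) and Cebpb (0.32 ± 0.070), changed less than that median. Of 10 classical ones 4 fell, at a median of -0.32 (16642 and 16660 against 20519 and 20673 CPM). The most abundant of these were Fn1, which fell, and F13a1, which did not pass. Cebpb is also among the NF-kB and cytokine signalling genes, and Nr4a1 is in both the handling and the non-classical list. Of 10 monocyte identity genes 3 rose and 1 fell, Lyz2 and Cybb being the most abundant. Of 14 neutrophil genes, 2 rose (the granule genes Ltf and Ngp, named after their values were seen) and 5 fell, and the sum was 35510 and 36082 against 36789 and 35652 CPM, with S100a9 and S100a8 on top. Basophil and mast cell genes summed to 206 and 195 against 209 and 221 CPM (0 of 8 passed with edgeR, 1 lower at an unadjusted p under 0.05; Hdc, Prss34), and eosinophil genes to 116 and 115 against 98.4 and 102 CPM (2 of 6 rose, 1 fell; Prg2, Epx). B and plasma cell genes summed to 1113 and 1108 against 743 and 750 CPM (6 of 10 rose, median log2 change 1.04, most abundant Ighm and Igkc). Dendritic cell genes stood at 322 and 330 against 283 and 286 CPM (3 of 12 rose). The most abundant of them, Cd209a and Tcf4, did not pass. Macrophage genes stood at 681 and 664 against 645 and 674 CPM (3 of 12 rose). Their most abundant, Slc40a1 and Adgre1, had negative log2 changes (-0.30 and -0.050) and did not pass with edgeR. Erythroid genes summed to 377 and 381 against 383 and 344 CPM (0 of 8 passed with edgeR, 3 higher at an unadjusted p under 0.05; Hbb-bs, Hba-a1) and platelet genes to 4.98 and 5.11 against 3.10 and 1.91 CPM (0 of 4 passed with edgeR, 2 higher at an unadjusted p under 0.05; Itga2b, Clec1b). DESeq2 and limma-voom called none of these 3 lists' genes either. Among all these markers only the platelet gene Gp1bb had 0 counts in all libraries. Nkg7 and Il2rb were the most abundant of the T and NK cell genes described with Ccl5.

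The genes whose profile over the 4 libraries was closest to a member were sought among 9194 genes of at least 5 CPM, as the smallest Euclidean distance between centred log2 CPM values. For Ccl3 they were Ciita (distance 0.0789), Ppp1r15a (0.102) and Pltp (0.157). Ppp1r15a is also among the immediate early and handling genes that rose. For Ccl9 the closest were Cers6 (0.00745), Rplp1 (0.0184) and Txn1 (0.0192). With 4 libraries such a likeness mostly says that the change with age was of the same size, 1.36, 1.35 and 1.32 on the log2 scale for the first set against 1.32 for Ccl3, and -0.35, -0.35 and -0.34 for the second against -0.34 for Ccl9.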

How the data were processed

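For each library the authors deposited unnormalised counts by gene symbol. HTSeq, STAR 2.5.3, cutadapt, DESeq2 and the mm10 build are listed, without roles, per the submitters' processing notes. The annotation and the strand setting were not stated there, so reads of genes overlapping on opposite strands may be shared. Per the labels' protocols, libraries were oligo-dT selected and strand-specific.

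Genes were kept by filterByExpr (minimum count 10, minimum total 15), scaled with TMM factors and tested for age, two-sided, with edgeR 4.0.16 (quasi-likelihood) in R 4.3.3, with Benjamini-Hochberg adjustment over all 12035 genes at 0.05; the procedure was tested on simulated data. A standard error is the log2 change divided by the square root of F. CPM use TMM-scaled library sizes; logs use a prior count of 2. GENCODE M21 (GRCm38) matched 30416 of 31017 symbols and gave exon lengths and positions; 3 counts, the limit that a count of 0 allows, are 0.0868 to 0.151 CPM and cover counting error only.

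Members and gene lists were chosen with earlier results of these data known. All members are named; from each pathway list up to 5 genes per direction with the smallest p among those that passed, otherwise the smallest p; the members' receptors (1 is not reported here); the 3 most abundant other ligands; and the 2 most abundant genes of each marker list. Alternatives were RLE, upper-quartile and no scaling factors, 2 other filters, DESeq2 1.42.0, limma-voom (limma 3.58.1), a block for the replicate number, and leaving out each library.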

Additional observations from a re-analysis of the deposited data

How the results depend on the processing

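All 116 alternative values of the 10 members kept their direction; 104 also kept their side of the threshold, and 12, of Ccl2, Ccl5, Ccl9 and Cxcl16, no longer passed. With each library left out in turn, the members higher in aged numbered 3 to 5 and those lower 0 to 1. A mean of at least 5 CPM left 6 members tested and 3 higher; Ccl2, Ccl4, Ccl5 and Cxcl16 were not tested there. Over all genes, the counts higher and lower were 606 and 793 with no low-count filter, 801 and 1016 with the replicate block, and 116 to 452 and 81 to 588 with a library left out; the cause was not tested. The replicate block left the members at 6 higher and 1 lower. The labels do not say that equal numbers pair libraries, and deviations of same-numbered libraries correlated at 0.0937 across genes. The gap between inducible and homeostatic ligands was 1.24 without Cxcl10, an alternative chosen after seeing the data, as were those of other named genes. Of 603 values of other named genes, 543 kept their direction and their side of the threshold, 30 no longer passed and 25 newly passed. Another 5 reversed with a library left out, all of genes that did not pass: Cxcr6 (-0.62 to 1.16), Lyz2 (-0.016 to 0.085), Itga2b (-0.013 to 0.74), Hbb-bs (-0.15 to 0.025) and Retnlg (-0.019 to 0.076). The lowest members rest on 47 to 165 counts a library, which limits their precision.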

Other observations

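The messages of the members differ in how often their 3′ untranslated regions hold the pentamer ATTTA, the core of AU-rich elements that decay factors bind. In the longest annotated 3′ untranslated region of each gene (GENCODE M21), Ccl3 held 5 in 409 bases, or 12.2 per kilobase, Cxcl2 11 in 1494 bases (7.36 per kilobase) and Ccl4 2 in 302 bases (6.62 per kilobase). These densities were above those of 99.6%, 97.9% and 97.1% of 11245 tested genes, whose median was 1.31 per kilobase. Ccl6 (4.24), Ccl2 (3.64), Cxcl10 (3.01), Ccrl2 (2.33), Ccl9 (2.03) and Cxcl16 (1.41) lay lower, and Ccl5 held none. Ccl3 and Cxcl2, the members with the largest rises, thus had the highest densities, but Ccl4, with the next highest, did not pass, and Ccl5 and Cxcl16 rose at densities of 0 and 1.41. This is a description of sequences, with no test.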
